A study of Homo sapiens with 12 samples.

Results

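The genes described here are 49 human genes that act in DNA replication and in the entry of cells into S phase. They were taken as a list of gene symbols and matched to the first column of a table of read counts, which held all 49 among its 22545 genes. Their levels were read by RNA sequencing in HaCaT cells, a human keratinocyte line that grows without limit in culture. The libraries, 12 in all, were 3 of cells given M5 and lefamulin, 3 of cells given M5 and retapamulin, 3 of cells given M5 alone and 3 of cells given none of these. They are called here the lefamulin, retapamulin, M5 and untreated libraries (ML, MR, M5 and WT in the labels). Both compound groups thus also received M5, and every sample carries the genotype label WT and the same batch word. M5 is shorthand used in the skin field for a cocktail of inflammatory cytokines put on keratinocytes as a model of psoriasis. The labels leave out its make-up in these cultures, the doses, the times of exposure and the solvent of the compounds. Lefamulin and retapamulin are antibiotics of the pleuromutilin class that have the tricyclic pleuromutilin core in common and carry different side chains. The title of the series names pleuromutilins and psoriasis, and the 2 compounds are compared with M5 alone and with each other below. The labels do not say that replicates are separate cultures, so the p-values below measure the spread between these libraries, which may be technical.

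A chromosome can be copied only from origins that were licensed beforehand, when ORC, CDC6 and CDT1 load the MCM helicase onto DNA. CDC45 and GINS then join the helicase, the polymerases, the PCNA clamp and RPA assemble around it, and ribonucleotide reductase and thymidylate synthase supply the deoxynucleotides. Most of these genes are known targets of the E2F transcription factors, which are released from RB once cyclin D and cyclin E kinases act in late G1, and in skin this program runs in the proliferating basal keratinocytes.

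Libraries held 35110519 to 37520999 counts, and all 49 members were among the 14207 genes that passed the filter on low counts. The smallest count of any member in any library was 23, for E2F2. Keratinocyte markers (KRT5, KRT14, KRT15, TP63, DSG3 and COL17A1) were all in the table, and their summed level was 1096 to 1123 CPM in the lefamulin, 1219 to 1254 CPM in the retapamulin, 1197 to 1244 CPM in the M5 and 2032 to 2108 CPM in the untreated libraries. CPM here is the read count scaled to a common library size by TMM, with no correction for gene length. Of these markers KRT14 was low throughout, with mean levels of 0.796, 0.730, 3.43 and 8.52 CPM in the same order, so that 5 of the 6 reached 1 CPM in both compound groups and all 6 in the others. The other markers moved in different directions. TP63, a transcription factor of basal cells, averaged 114 CPM in the lefamulin, 86.5 CPM in the retapamulin, 228 CPM in the M5 and 104 CPM in the untreated libraries, and KRT5, a basal keratin, 454, 437, 637 and 1632 CPM in the same order. KRT15 averaged 124, 237, 81.5 and 142 CPM, DSG3 193, 209, 125 and 87.1 CPM and COL17A1 220.0, 270.1, 142 and 97.7 CPM, again in that order. TP63 and KRT5 were thus lower with each compound than with M5 alone, and KRT15, DSG3 and COL17A1 higher, with no overlap between libraries. Markers of leukocytes summed to at most 1.79 CPM and those of melanocytes to at most 2.44 CPM. Of the fibroblast markers, COL1A1 alone exceeded 1 CPM, with means of 15.9 CPM in the lefamulin, 10.2 CPM in the retapamulin, 6.09 CPM in the M5 and 7.42 CPM in the untreated libraries, and COL3A1 and LUM were at or below 0.0285 CPM. Of the endothelial markers, 3 of 4 were in the table, and CDH5 averaged 119 CPM in the lefamulin, 105 CPM in the retapamulin, 119.6 CPM in the M5 and 15.5 CPM in the untreated libraries, while PECAM1 stayed at or below 0.0301 CPM. VWF averaged 2.34 CPM in the lefamulin, 2.23 CPM in the retapamulin, 0.0543 CPM in the M5 and 0.476 CPM in the untreated libraries, and its compound libraries lay above all others. The part of these shifts in the results below was not tested.

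In the lefamulin and the retapamulin libraries the replication genes were lower than in M5 libraries for all 49 members. The 49 members together summed to 3431 ± 7.08 CPM with lefamulin and 3272 ± 20.5 CPM with retapamulin, against 6186 ± 56.2 CPM with M5 alone and 6860 ± 57.1 CPM in untreated cells (SD, n = 3 each). With lefamulin against M5, 49 of 49 members fell at an adjusted p under 0.05 in edgeR's quasi-likelihood test, and 0 rose, where 34.3% of all 14207 genes tested fell and 33.6% rose. The median log2 fold change of the members was -0.93, that of all genes tested -0.00. With retapamulin against M5, again 49 fell and 0 rose, beside a background of 38% lower and 34.1% higher, and the medians were -1.003 for the members and -0.05 for all genes tested. These 2 comparisons share the M5 libraries. In bulk RNA, fewer cells in S phase and less of these transcripts per cell cannot be told apart.

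The size of the fall varied widely among the members. With lefamulin 19 members were at or below a log2 fold change of -1 against M5, a mark reached by 4.91% of all genes tested, and with retapamulin 25 were, against 8.66%. The lefamulin libraries did not overlap the M5 libraries for 49 members (36% of all genes had lower, non-overlapping libraries), and the retapamulin libraries did not for 48 (38.9% of all genes). PRIM2 was the member with overlap. E2F2 fell furthest, to 9.69% of its M5 level with lefamulin and 7.59% with retapamulin, and E2F1 came next with both. CDC6, PRIM2 and RFC1 fell least, with log2 fold changes of -0.21, -0.23 and -0.34 with lefamulin and -0.38, -0.17 and -0.32 with retapamulin. The median coefficient of variation of a member over the 3 libraries of a group was 4.10% with lefamulin, 3.29% with retapamulin, 2.67% with M5 and 3.46% in untreated cells. Of the 49 calls in each comparison, 48 were kept under each of 21 alternative settings, the exception both times being PRIM2.

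With M5 alone most members were slightly lower and a few were higher. Against untreated cells, 35 members fell, 4 rose and 10 were not called, where 26.9% of all genes tested fell and 28.3% rose. These shares, and those given above for each compound against M5, are also the background for the counts in each role group below. The members' median log2 fold change was -0.19 and that of all genes tested -0.02. The M5 libraries lay wholly below the untreated ones for 35 members (29.4% of all genes) and wholly above them for 6 (29.8%). LIG1 fell most, by 0.62 on the log2 scale, and the members that rose were CCNE1, RRM2, GINS3 and POLD3. The members without a call were ORC1, ORC6, CDC6, MCM10, CDC45, POLE, PCNA, RPA2, CCNE2 and CHAF1A, and the 95% intervals of their log2 fold changes lay between -0.17 and 0.20. Of the calls, 30 of the 35 lower and 2 of the 4 higher, those of CCNE1 and RRM2, were kept under all 21 alternatives. Leaving out untreated replicate 1 took the number of risers to 2. With libraries scaled by their totals alone, the median of all genes itself moved to -0.14, the members' median to -0.31, and the share of higher genes among all those called to 31.5% in place of 51.3%. The distance between the 2 medians stayed at -0.17.

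**Figure D1:**
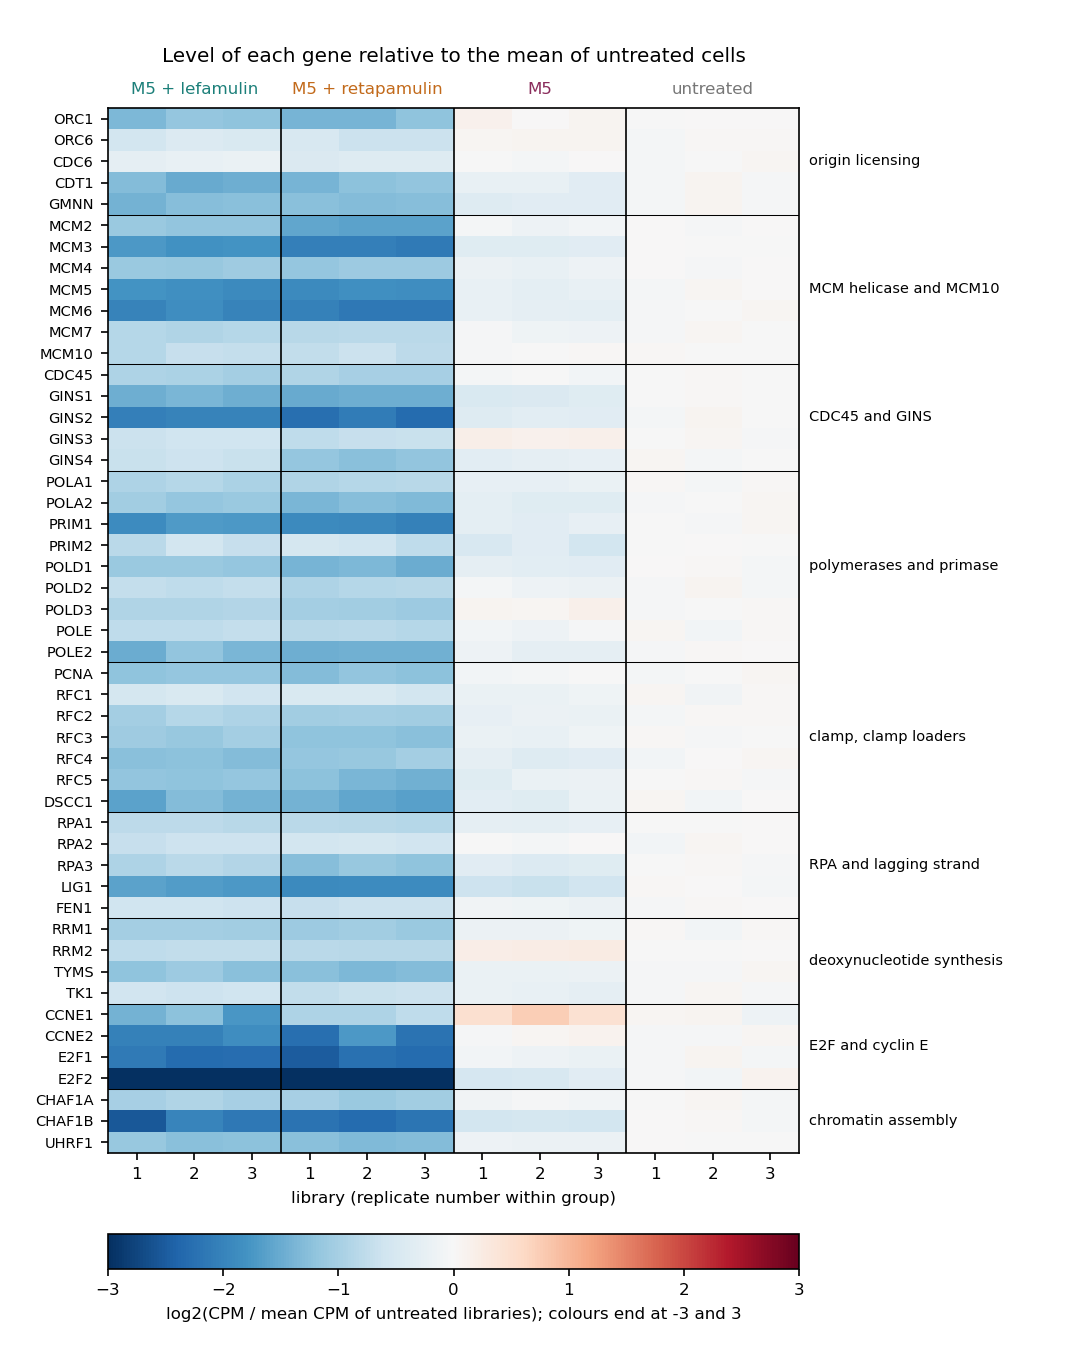
Level of each of the 49 members in each of the 12 libraries as the log2 ratio of its CPM to the gene's mean CPM in untreated libraries, with genes in rows by role and libraries in columns, lefamulin first and untreated last. The colour scale ends at -3 and 3, and the lefamulin and retapamulin columns are lower on average than the M5 columns in all 49 rows, least so for CDC6, PRIM2 and RFC1.

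**Figure D2:**
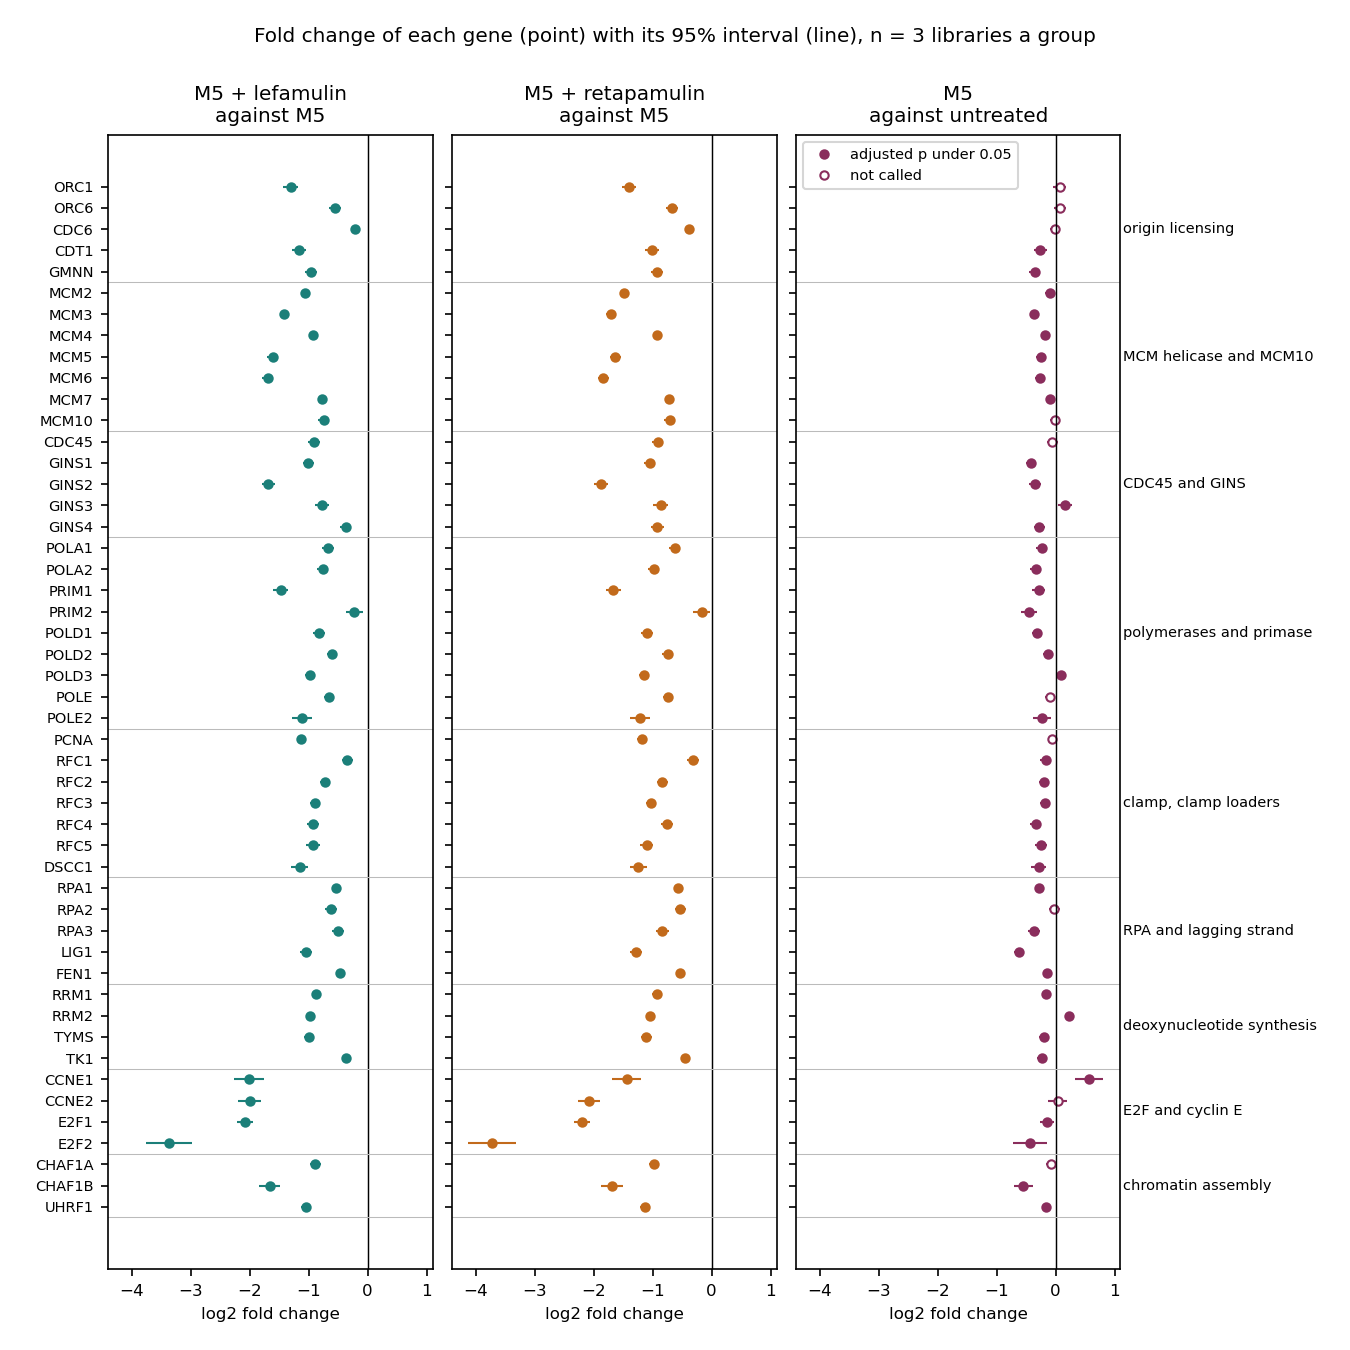
Log2 fold change of each member (point, filled where called) with its 95% interval (line), for lefamulin against M5, retapamulin against M5 and M5 against untreated cells. All compound values lie below 0, E2F2 lowest at -3.37 and -3.72, while the values for M5 alone lie between -0.62 and 0.57.

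Promoter sequences were looked up for the members in RefSeq (GRCh38.p14), as windows of 250 bases before to 50 after an annotated start, and 41 of the 49 had an entry. Shown here are the windows of the 3 members with the largest and the 3 with the smallest mean fall across the compounds, among those with 1 listed start. Capitals mark exact matches to the E2F-type words TTTCCCGC, TTTCGCGC, TTTGCCGC and TTTGGCGC, or to their reverse complements GCGGGAAA, GCGCGAAA, GCGGCAAA and GCGCCAAA. Each sequence is written 5′ to 3′ on the strand of its gene. E2F2 (chr1:23531184-23531483, minus strand) has 1 word that begins 42 bases before the start, E2F1 (chr20:33686336-33686635, minus strand) has 2, beginning 33 and 20 bases before it, and GINS2 (chr16:85688905-85689204, minus strand) has 1, beginning 31 bases before it. FEN1 (chr11:61792661-61792960, plus strand) and RFC1 (chr4:39366313-39366612, minus strand) have 0 words, and CDC6 (chr17:40287629-40287928, plus strand) has 1 just inside the transcript, beginning 7 bases after the start. Near matches were not searched for and stay in lower case, such as tttggcgg upstream of the marked word in CDC6. A window with 0 words, or with none before the start, may thus still hold E2F sites.
E2F2: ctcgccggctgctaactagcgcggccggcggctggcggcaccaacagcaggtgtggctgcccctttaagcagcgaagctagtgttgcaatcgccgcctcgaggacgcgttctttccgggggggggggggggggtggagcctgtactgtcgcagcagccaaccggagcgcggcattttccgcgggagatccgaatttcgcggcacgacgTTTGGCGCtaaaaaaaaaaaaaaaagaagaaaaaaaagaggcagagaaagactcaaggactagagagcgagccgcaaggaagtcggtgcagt
E2F1: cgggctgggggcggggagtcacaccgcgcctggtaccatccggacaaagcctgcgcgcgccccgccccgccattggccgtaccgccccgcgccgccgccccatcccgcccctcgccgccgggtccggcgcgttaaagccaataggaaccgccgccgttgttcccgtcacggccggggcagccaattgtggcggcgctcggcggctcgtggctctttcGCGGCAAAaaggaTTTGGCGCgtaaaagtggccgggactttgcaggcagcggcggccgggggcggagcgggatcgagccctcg
GINS2: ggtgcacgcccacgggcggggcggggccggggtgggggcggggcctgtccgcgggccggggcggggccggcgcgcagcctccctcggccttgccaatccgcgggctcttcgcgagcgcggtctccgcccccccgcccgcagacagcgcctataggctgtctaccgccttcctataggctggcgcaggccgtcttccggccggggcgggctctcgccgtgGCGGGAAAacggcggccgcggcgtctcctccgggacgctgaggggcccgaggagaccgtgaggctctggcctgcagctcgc
FEN1: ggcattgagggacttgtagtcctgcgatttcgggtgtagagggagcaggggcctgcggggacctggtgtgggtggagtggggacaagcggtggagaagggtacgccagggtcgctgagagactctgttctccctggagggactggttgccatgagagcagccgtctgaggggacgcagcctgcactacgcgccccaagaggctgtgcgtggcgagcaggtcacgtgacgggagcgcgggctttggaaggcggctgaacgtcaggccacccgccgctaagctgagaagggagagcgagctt
RFC1: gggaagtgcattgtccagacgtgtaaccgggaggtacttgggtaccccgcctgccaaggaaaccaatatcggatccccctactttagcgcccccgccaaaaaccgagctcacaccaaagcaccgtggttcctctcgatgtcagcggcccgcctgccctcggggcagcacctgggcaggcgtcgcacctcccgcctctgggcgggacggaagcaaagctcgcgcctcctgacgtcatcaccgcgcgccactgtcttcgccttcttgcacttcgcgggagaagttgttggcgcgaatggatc
CDC6: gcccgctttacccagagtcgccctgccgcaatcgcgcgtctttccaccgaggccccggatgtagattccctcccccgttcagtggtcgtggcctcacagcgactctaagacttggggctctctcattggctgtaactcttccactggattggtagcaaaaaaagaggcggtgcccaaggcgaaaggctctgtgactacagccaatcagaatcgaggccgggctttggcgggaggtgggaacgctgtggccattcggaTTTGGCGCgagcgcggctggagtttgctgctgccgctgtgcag

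At least 1 such word stood in a window of 21 of the 41 members (51.2%), against 704 of 11088 other tested genes with an entry (6.35%). Counted per window, it stood in 22 of 53 windows of members (41.5%), against 1164 of all 35116 windows (3.31%). At least 2 words stood in 4 members (9.76%), against 0.234% of other tested genes. E2F1, MCM3, MCM6 and MCM7 were the members with 2. The 21 members with a word had median log2 fold changes of -1.05 with lefamulin and -1.11 with retapamulin against M5, and the 20 without had -0.85 and -0.87. The ranges of the sets overlapped, and CCNE1, PRIM1 and CHAF1B fell strongly without a match in their windows. A match is a run of letters and not a shown binding site. Most members are known E2F targets, so the higher share of words follows from the choice of list and not from these libraries. Whether the words bear on the falls was not tested.

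The E2F and cyclin E genes were the role group that fell furthest in both compound groups. E2F1 and E2F2 are activator E2Fs, and CCNE1 and CCNE2 encode the E cyclins that activate CDK2 at the start of S phase. All 4 fell with each compound, with a median log2 fold change of -2.05 with lefamulin and -2.13 with retapamulin. As background, E2F1 and the cyclin E genes are themselves E2F targets.

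E2F2 had 1.08, 2.46 and 1.77 CPM in the lefamulin libraries, 1.45, 0.679 and 2.01 in the retapamulin libraries, 17.4, 17.8 and 19.5 in the M5 libraries and 23.8, 23.4 and 26.6 in the untreated libraries. Both compound groups lay far below the M5 libraries, and these lay below the untreated ones without overlap. Against M5 the log2 fold change was -3.37 ± 0.19 (SE) with lefamulin and -3.72 ± 0.20 with retapamulin, at edgeR adjusted p = 6.23e-14 and 1.66e-14. With counts this low, its spread within the compound groups was the widest of the members, a coefficient of variation of 39.0% with lefamulin and 48.5% with retapamulin. M5 against untreated gave -0.43 ± 0.14 (edgeR adjusted p = 0.0115). That call was lost in DESeq2, on log2(FPKM + 0.1) and without M5 replicate 1 or untreated replicate 3 (adjusted p 0.053 to 0.0623 without them), over a range of 2.86e-05 to 0.283 in the 21 alternatives.

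E2F1 showed the same order of groups, with 13.5, 11.8 and 12.1 CPM in the lefamulin libraries, 10.4, 12.4 and 11.9 in the retapamulin libraries, 55.0, 52.4 and 50.9 in the M5 libraries and 57.3, 62.0 and 56.0 in the untreated libraries. Each compound library lay far below each M5 library, the compound groups overlapped each other, and the M5 libraries lay just below the untreated ones. Against M5 its log2 fold change was -2.08 ± 0.064 with lefamulin (edgeR adjusted p = 5.16e-19) and -2.19 ± 0.066 with retapamulin (adjusted p = 1.66e-19). M5 against untreated gave -0.15 ± 0.055 (edgeR adjusted p = 0.0268), a call lost in DESeq2 and without M5 replicate 2, M5 replicate 3 or untreated replicate 2 (adjusted p 0.0784 to 0.148 without them, 0.000225 to 0.148 over the alternatives).

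CCNE1 was the member that M5 raised most. It stood at 3.95, 4.49 and 3.11 CPM in the lefamulin libraries, 5.52, 5.52 and 6.15 in the retapamulin libraries, 14.5, 17.6 and 14.4 in the M5 libraries and 10.9, 11.2 and 9.37 in the untreated libraries. The M5 libraries lay above all untreated ones, and both compound groups lay below the untreated ones. The log2 fold change was 0.57 ± 0.11 for M5 against untreated, -2.01 ± 0.12 for lefamulin against M5 and -1.44 ± 0.12 for retapamulin against M5 (edgeR adjusted p = 0.00014, 4.69e-13 and 9.22e-11), and no alternative ended any of the 3 calls. The paralog CCNE2 had 8.21, 8.25 and 9.23 CPM in the lefamulin libraries, 6.99, 10.1 and 7.25 in the retapamulin libraries, 32.4, 34.5 and 35.8 in the M5 libraries and 32.6, 32.8 and 34.9 in the untreated libraries. Here the M5 and untreated libraries overlapped, with a log2 fold change of 0.03 ± 0.080 (95% interval -0.13 to 0.20, edgeR adjusted p = 0.738, 0.366 to 0.968 over the alternatives) whose sign turned on library totals and FPKM. With lefamulin CCNE2 fell by 2.00 and with retapamulin by 2.08 on the log2 scale against M5. In deposited FPKM, which correct for gene length, the ratio of CCNE1 to CCNE2 was 0.888 ± 0.209 with lefamulin, 1.42 ± 0.312 with retapamulin, 0.888 ± 0.106 with M5 and 0.616 ± 0.0790 in untreated cells. The mean ratio was highest with retapamulin and lowest in untreated cells, with the untreated range (0.525 to 0.667) wholly below that of M5 (0.788 to 0.999). CCNE2 shares genomic bases with INTS8 and NDUFAF6, and since the strand setting of the counting is not given, its counts are uncertain to that extent.

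**Figure D3:**
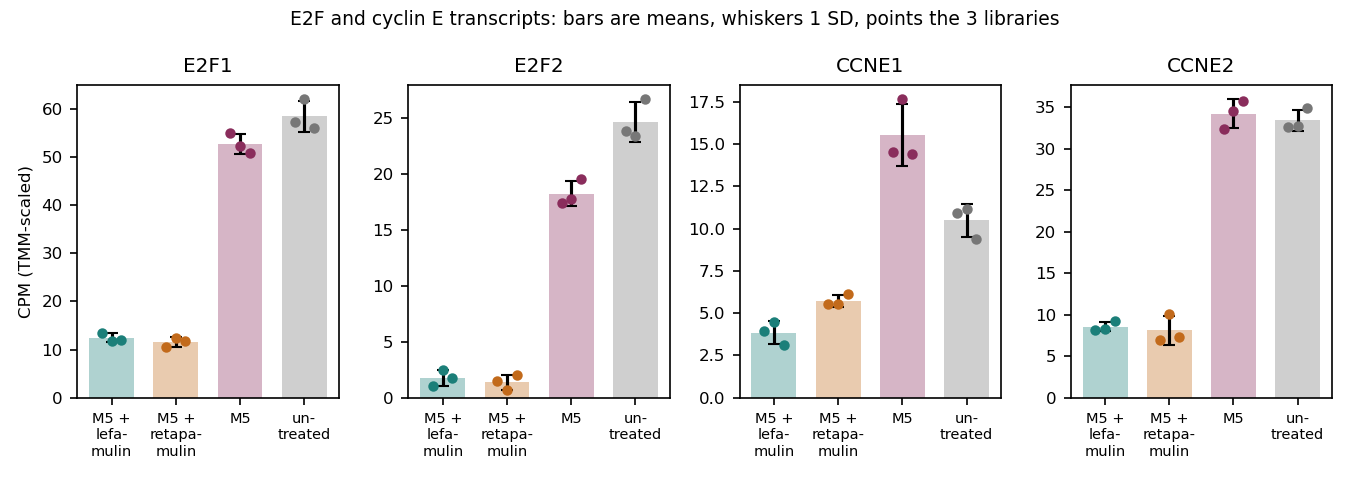
Level in CPM of E2F1, E2F2, CCNE1 and CCNE2 by group, with points for libraries, bars for group means and whiskers for 1 SD. In all 4 panels both compound groups lie below M5, and in the CCNE1 panel M5 lies above untreated.

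Origin licensing is done by ORC, here its subunits ORC1 and ORC6, with CDC6 and CDT1, and is held back after origins fire by geminin (GMNN), which binds CDT1. All 5 fell with each compound, with medians of -0.96 for lefamulin and -0.93 for retapamulin against M5 on the log2 scale. With M5 alone CDT1 and GMNN fell and the other 3 were not called. ORC1 had 17.0, 19.3 and 18.5 CPM in the lefamulin libraries, 16.5, 16.3 and 18.6 in the retapamulin libraries, 46.7, 43.5 and 45.2 in the M5 libraries and 42.3, 43.4 and 43.4 in the untreated libraries. The compound libraries lay far below both others, and the M5 libraries were slightly above the untreated ones without a call. Lefamulin changed it by -1.30 ± 0.059 on the log2 scale and retapamulin by -1.40 ± 0.059 against M5 (edgeR adjusted p = 8.57e-16 and 1.95e-16), the largest in this group. ORC1 overlaps PRPF38A on the genome, which leaves its counts uncertain.

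GMNN stood at 35.6, 39.5 and 39.8 CPM in the lefamulin libraries, 40.1, 38.6 and 39.1 in the retapamulin libraries, 72.5, 75.9 and 75.7 in the M5 libraries and 92.2, 101 and 93.1 in the untreated libraries. Its libraries formed 3 levels, the compounds lowest, M5 between and untreated highest, and the compound groups overlapped each other. It changed by -0.35 ± 0.046 on the log2 scale with M5 against untreated, the largest M5 change of the licensing genes, and -0.96 ± 0.049 and -0.93 ± 0.049 with lefamulin and retapamulin against M5 (edgeR adjusted p = 4.07e-07, 8.61e-15 and 1.38e-14). CDT1, which geminin inhibits, fell by 1.16 with lefamulin and by 1.00 with retapamulin. In FPKM the ratio of CDT1 to GMNN was 1.39, 1.51, 1.59 and 1.49 on average in lefamulin, retapamulin, M5 and untreated libraries, with a standard deviation of 0.20 in the lefamulin libraries, as large as the widest gap between group means, and overlapping ranges. CDC6 contrasts with its partners. It kept 86.4% of its M5 level with lefamulin and 76.6% with retapamulin, while ORC6 kept 68.3% and 62.8%.

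MCM2 to MCM7 form the ring that unwinds the parental DNA, and MCM10 helps to start it. All 7 fell with each compound, with a median log2 fold change of -1.06 with lefamulin and -1.48 with retapamulin, and 6 fell with M5 alone, MCM10 being the one not called. Of the 7, MCM6 fell furthest, and had 45.6, 50.5 and 45.6 CPM in the lefamulin libraries, 45.1, 41.7 and 41.8 in the retapamulin libraries, 158, 151 and 149 in the M5 libraries and 180.1, 180.3 and 189 in the untreated libraries. All compound libraries lay far below the M5 ones, the lefamulin libraries lay just above the retapamulin ones, and the M5 libraries lay below the untreated ones. Against M5 it changed by -1.69 ± 0.045 on the log2 scale with lefamulin and -1.83 ± 0.046 with retapamulin (edgeR adjusted p = 2.64e-20 and 4.72e-21). MCM3, another ring subunit, had 77.4, 73.2 and 74.2 CPM in the lefamulin libraries, 62.2, 61.8 and 59.0 in the retapamulin libraries, 197, 198 and 202 in the M5 libraries and 259.5, 255 and 254 in the untreated libraries. All 4 groups were apart, in the order retapamulin, lefamulin, M5 and untreated. MCM3 had the largest M5 change of this group, -0.36 ± 0.033 (edgeR adjusted p = 1.66e-09), and fell by a further 1.41 with lefamulin and 1.71 with retapamulin. MCM2, MCM4 and MCM5 lay between -0.92 and -1.63 with the compounds, and MCM7 and MCM10 between -0.71 and -0.77. The M5 call of MCM2 (-0.10 ± 0.034) was lost with no low-count filter and without M5 replicate 2 or untreated replicate 3, and that of MCM7 (-0.10 ± 0.031) without M5 replicate 3 (edgeR adjusted p 0.0528 to 0.0991 and 0.0687 without them, 4.06e-06 to 0.0991 and 8.56e-07 to 0.0687 over the alternatives).

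Because the subunits sit together in 1 ring, their levels were also compared per length, with SDs of shares in percentage points. Summed FPKM, which are relative to library totals, of MCM2 to MCM7 were 306 ± 4.41 with lefamulin, 282 ± 1.13 with retapamulin, 613 ± 15.3 with M5 and 743 ± 7.65 in untreated cells. MCM7 was the most abundant member of all in M5 libraries, at 319 ± 12.7 FPKM. Its share of the summed FPKM was 59.1% ± 0.236 with lefamulin and 62.8% ± 0.338 with retapamulin, against 52.0% ± 0.857 with M5 and 49.9% ± 0.977 in untreated cells. The compound libraries had the larger shares without overlap, at 58.9% to 59.3% and 62.5% to 63.1%, while the M5 (51.0% to 52.7%) and untreated ranges (49.2% to 51.0%) overlapped. MCM6 made up 4.02% ± 0.302 with lefamulin and 3.73% ± 0.194 with retapamulin, against 6.71% ± 0.0768 with M5. The transcripts of the ring subunits thus did not fall in equal proportion.

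**Figure D4:**
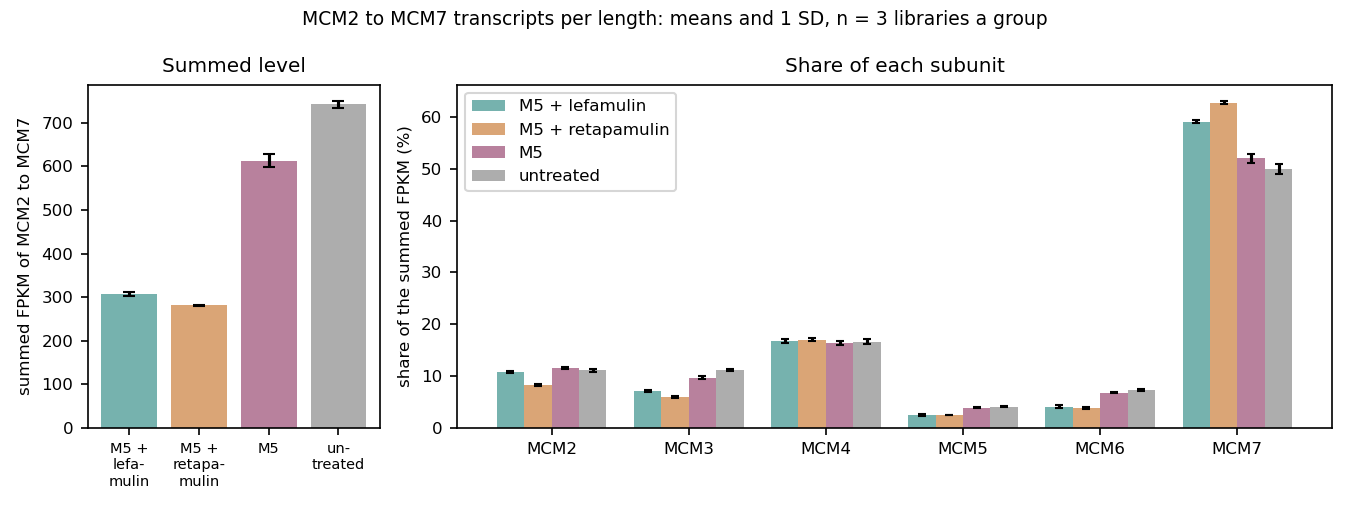
Summed FPKM of MCM2 to MCM7 by group (left) and the share in percent of each subunit in that sum (right), with bars for means and whiskers for 1 SD over 3 libraries. MCM7 makes up 59.1% with lefamulin and 62.8% with retapamulin, against 52.0% with M5 and 49.9% in untreated cells.

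CDC45 and the 4 GINS subunits complete the active helicase. All 5 fell with each compound, with medians of -0.91 with lefamulin and -0.92 with retapamulin on the log2 scale. GINS2 had 17.4, 18.0 and 17.9 CPM in the lefamulin libraries, 15.1, 16.8 and 14.6 in the retapamulin libraries, 55.3, 58.2 and 57.2 in the M5 libraries and 68.9, 76.3 and 71.4 in the untreated libraries. Its compound libraries lay far below the M5 ones and its retapamulin libraries below its lefamulin ones, with log2 fold changes of -1.68 ± 0.055 for lefamulin and -1.88 ± 0.056 for retapamulin (edgeR adjusted p = 1.38e-18 and 1.63e-19). Its gene touches that of GSE1 by 3 bases. GINS1 stood at 30.6, 32.5 and 30.7 CPM in the lefamulin libraries, 29.7, 30.7 and 30.4 in the retapamulin libraries, 61.0, 62.4 and 65.0 in the M5 libraries and 83.3, 86.2 and 83.1 in the untreated libraries. M5 and untreated libraries were apart, and GINS1 had the largest M5 change here, -0.42 ± 0.041 (edgeR adjusted p = 3.35e-09). With lefamulin it fell by a further 1.01 and with retapamulin by 1.05.

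GINS3 went against the other GINS genes with M5, since it had 16.0, 16.3 and 16.5 CPM in the lefamulin libraries, 14.7, 15.3 and 15.7 in the retapamulin libraries, 28.3, 27.1 and 27.8 in the M5 libraries and 24.5, 25.9 and 24.1 in the untreated libraries. The M5 libraries lay just above the untreated ones, and both compound groups lay below them. Its M5 change was 0.16 ± 0.057 (edgeR adjusted p = 0.0215), and this call was lost with a filter at 5 CPM, on library totals, on FPKM and without M5 replicate 1, untreated replicate 1 or untreated replicate 3 (adjusted p 0.0593 to 0.0797 without them, 0.0155 to 0.547 over the alternatives). Against M5 it fell by 0.77 with lefamulin and by 0.86 with retapamulin. In FPKM, GINS2 supplied 21.3% ± 0.242 of the summed GINS level with lefamulin and 21.5% ± 1.34 with retapamulin, against 34.2% ± 0.599 with M5 and 35.9% ± 1.16 in untreated cells. CDC45 fell by 0.91 with each compound and did not move past the threshold with M5.

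The polymerase group holds polymerase alpha (POLA1, POLA2) with primase (PRIM1, PRIM2), which lay down primers, polymerase delta (POLD1, POLD2, POLD3) for the lagging strand and polymerase epsilon (POLE, POLE2) for the leading strand. All 9 fell with each compound, with medians of -0.76 with lefamulin and -0.98 with retapamulin. The primase subunits parted ways. PRIM1, the catalytic subunit, had 11.7, 13.4 and 13.2 CPM in the lefamulin libraries, 11.5, 11.3 and 10.7 in the retapamulin libraries, 35.3, 34.4 and 36.5 in the M5 libraries and 42.6, 42.2 and 44.9 in the untreated libraries. Its compound libraries lay far below the M5 ones and the M5 ones below the untreated ones, with log2 fold changes of -1.47 ± 0.062 for lefamulin and -1.66 ± 0.063 for retapamulin (edgeR adjusted p = 2.15e-16 and 2.04e-17).

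PRIM2, the large subunit, stood at 19.4, 23.3 and 21.0 CPM in the lefamulin libraries, 23.6, 22.6 and 20.1 in the retapamulin libraries, 24.5, 26.7 and 23.3 in the M5 libraries and 34.0, 34.4 and 33.6 in the untreated libraries. Its retapamulin and M5 libraries overlapped, and its highest lefamulin library all but equalled its lowest M5 library. The log2 fold changes were -0.23 ± 0.071 and -0.17 ± 0.071 (edgeR adjusted p = 0.00725 and 0.0364). The lefamulin call was lost without M5 replicate 2 or lefamulin replicate 1 (adjusted p 0.0532 to 0.0607 without them, 0.00128 to 0.0607 over the alternatives). The retapamulin call was lost in DESeq2, with RLE size factors, with a filter at 5 CPM and without M5 replicate 1, M5 replicate 2 or retapamulin replicate 3 (adjusted p 0.0545 to 0.221 without them, 0.000725 to 0.221 over the alternatives). M5 against untreated gave the largest M5 change of this group, -0.45 ± 0.068 (edgeR adjusted p = 4.58e-06). The ratio of PRIM1 to PRIM2 in FPKM was 3.01 ± 0.136 with lefamulin, 2.54 ± 0.112 with retapamulin, 7.17 ± 0.697 with M5 and 6.38 ± 0.289 in untreated cells. The compound ranges (2.87 to 3.14 and 2.44 to 2.66) lay wholly below those of M5 (6.45 to 7.85) and untreated cells (6.14 to 6.70). The deposited FPKM imply fixed lengths of 1423 bases for PRIM1 and 7129 bases for PRIM2, and the size of the ratio depends on these. PRIM2 overlaps RAB23 on the genome, so its counts are uncertain.

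POLD3, an accessory subunit of polymerase delta, was called higher with M5 while 7 others of its group fell. It had 44.1, 44.1 and 44.6 CPM in the lefamulin libraries, 40.4, 39.9 and 38.7 in the retapamulin libraries, 86.1, 85.5 and 90.4 in the M5 libraries and 80.5, 80.8 and 84.4 in the untreated libraries. The M5 libraries lay just above the untreated ones, and the compound libraries lay far below both. Its M5 change was 0.09 ± 0.038 (edgeR adjusted p = 0.0448), lost with a filter at 5 CPM, in a fit of the 2 groups alone and without M5 replicate 3, untreated replicate 1 or untreated replicate 2 (adjusted p 0.0904 to 0.167 without them, 0.0256 to 0.553 over the alternatives), and its sign turned on library totals and on FPKM. Against M5 it fell by 0.98 with lefamulin and by 1.14 with retapamulin. POLA1, POLA2, POLD1, POLD2, POLE and POLE2 had log2 fold changes of -0.60 to -1.11 with lefamulin and -0.63 to -1.22 with retapamulin, POLE2 the lowest and POLD2 or POLA1 the highest. The M5 call of POLD2 (-0.13 ± 0.042) was lost without M5 replicate 2, M5 replicate 3 or untreated replicate 2 (edgeR adjusted p 0.0537 to 0.0944 without them, 2.15e-05 to 0.0944 over the alternatives).

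PCNA is the sliding clamp, RFC1 to RFC5 form the complex that loads it, and DSCC1 belongs to an alternative loader used in sister chromatid cohesion. All 7 fell with each compound (medians -0.93 and -1.03), and 6 fell with M5 alone. PCNA had 119.9, 123 and 123 CPM in the lefamulin libraries, 112, 121 and 119 in the retapamulin libraries, 259.9, 265 and 273 in the M5 libraries and 268, 275 and 288 in the untreated libraries. The compound groups overlapped each other far below the M5 libraries, and the M5 and untreated libraries overlapped. Its log2 fold change was -1.12 ± 0.037 with lefamulin and -1.18 ± 0.038 with retapamulin against M5 (edgeR adjusted p = 2.11e-18 and 5.63e-19), and -0.06 ± 0.036 with M5 against untreated (95% interval -0.13 to 0.02, edgeR adjusted p = 0.18). That last value was called lower with a filter at 5 CPM, on FPKM and on library totals, and its adjusted p ranged over 5.19e-05 to 0.586 in the alternatives.

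DSCC1 fell furthest of this group with the compounds, and had 13.9, 17.1 and 15.8 CPM in the lefamulin libraries, 15.8, 14.4 and 13.7 in the retapamulin libraries, 34.1, 33.0 and 36.6 in the M5 libraries and 43.6, 40.1 and 42.8 in the untreated libraries. Compound, M5 and untreated libraries stood on 3 separate levels, with log2 fold changes of -1.15 ± 0.070 and -1.24 ± 0.071 against M5 (edgeR adjusted p = 3.69e-13 and 7.67e-14). RFC4 had 38.5, 38.9 and 36.9 CPM in the lefamulin libraries, 41.2, 42.0 and 45.2 in the retapamulin libraries, 75.5, 69.9 and 72.2 in the M5 libraries and 86.7, 92.5 and 95.6 in the untreated libraries. All 4 groups were apart, lefamulin lowest and untreated highest, and RFC4 had the largest M5 change among the loaders, -0.34 ± 0.045 (edgeR adjusted p = 8.24e-07). RFC1, the large subunit, fell least, and its share of the summed FPKM of RFC1 to RFC5 was 12.6% ± 0.333 with lefamulin and 12.9% ± 0.471 with retapamulin, against 9.28% ± 0.144 with M5 and 8.77% ± 0.626 in untreated cells. RFC2, RFC3 and RFC5 lay between -0.72 and -1.10 with the compounds. RFC5 overlaps WSB2 and is uncertain to that extent.

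The RPA subunits coat the exposed strand, and FEN1 and LIG1 trim and join Okazaki fragments. This group fell least, with medians of -0.53 with lefamulin and -0.56 with retapamulin on the log2 scale. LIG1 stood apart from the other 4 and had 28.5, 27.1 and 26.1 CPM in the lefamulin libraries, 22.8, 23.2 and 23.4 in the retapamulin libraries, 56.3, 54.6 and 57.7 in the M5 libraries and 88.9, 86.9 and 83.1 in the untreated libraries. All 4 groups of libraries were apart. Its log2 fold change was -0.62 ± 0.043 with M5 against untreated, and against M5 -1.05 ± 0.047 with lefamulin and -1.28 ± 0.048 with retapamulin (edgeR adjusted p = 7.21e-12, 7.76e-16 and 1.58e-17). RPA1, RPA2, RPA3 and FEN1 had log2 fold changes of -0.47 to -0.62 with lefamulin and -0.53 to -0.83 with retapamulin. With M5 alone RPA1, RPA3 and FEN1 fell and RPA2 was not called. RPA3 overlaps UMAD1 and is uncertain.

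Of the deoxynucleotide genes, RRM1 and RRM2 encode the subunits of ribonucleotide reductase, TYMS thymidylate synthase and TK1 the salvage enzyme thymidine kinase. All 4 fell with each compound (medians -0.92 and -0.99). TYMS fell furthest, and had 50.5, 55.3 and 49.6 CPM in the lefamulin libraries, 49.1, 46.2 and 48.0 in the retapamulin libraries, 103, 103 and 103 in the M5 libraries and 115, 115 and 122 in the untreated libraries. The log2 fold changes were -0.99 ± 0.043 with lefamulin and -1.11 ± 0.044 with retapamulin (edgeR adjusted p = 4.48e-16 and 4.2e-17). Lefamulin libraries lay just above the retapamulin ones, both far below M5, and M5 below untreated. TYMS overlaps ENOSF1 on the genome and its counts are uncertain to that extent.

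RRM2 rose with M5 and had 213, 216 and 216 CPM in the lefamulin libraries, 205, 202 and 204 in the retapamulin libraries, 415, 422 and 428 in the M5 libraries and 357, 359.9 and 364 in the untreated libraries. Every M5 library was above every untreated one, by 0.23 ± 0.028 on the log2 scale (edgeR adjusted p = 2.63e-07), a call kept in all alternatives. It fell by 0.97 with lefamulin and by 1.05 with retapamulin against M5, and all compound libraries lay below the untreated ones. RRM1 fell with M5, and the RRM2 to RRM1 ratio in FPKM was 1.84 ± 0.0271 with lefamulin, 1.82 ± 0.0466 with retapamulin, 1.98 ± 0.0336 with M5 and 1.51 ± 0.0676 in untreated cells. TK1 stood at 171, 164 and 169 CPM in the lefamulin libraries, 152, 159 and 164 in the retapamulin libraries, 220.0, 216 and 212 in the M5 libraries and 248, 266 and 248 in the untreated libraries. It had the largest fall with M5 in this group (-0.23 ± 0.036, edgeR adjusted p = 6.88e-06) and the smallest with the compounds, -0.36 and -0.45.

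CHAF1A and CHAF1B are subunits of the chromatin assembly factor that deposits histones behind the fork, and UHRF1 brings DNA methylation to the new strand. All 3 fell with each compound (medians -1.05 and -1.13). CHAF1B had 6.94, 10.2 and 9.17 CPM in the lefamulin libraries, 8.74, 8.20 and 8.77 in the retapamulin libraries, 27.5, 28.0 and 27.5 in the M5 libraries and 41.0, 41.5 and 38.6 in the untreated libraries. Its libraries stood on 3 levels, and it fell by 0.54 with M5, by 1.66 with lefamulin and by 1.69 with retapamulin on the log2 scale (edgeR adjusted p = 1.45e-06, 1.99e-14 and 1.19e-14). CHAF1A fell by 0.89 and 0.98 with lefamulin and retapamulin, and was not called with M5. UHRF1 fell by 1.05 and 1.13. CHAF1A overlaps UBXN6 on the genome, with the same uncertainty.

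Lefamulin and retapamulin were compared directly as 1 pair of compounds, and since neither dose nor time is given it is not known whether they were matched. Of the 49 members, 17 were higher with lefamulin than with retapamulin, 3 were lower and 29 were not called, where 18.8% of all genes tested were higher and 21.2% lower. The median log2 difference, lefamulin over retapamulin, was 0.09 for the members and 0.01 for all genes tested. Lefamulin libraries lay wholly above the retapamulin ones for 24 members (25.2% of all genes) and wholly below them for 4 (26.8%). The count depended on scaling, with 9 higher calls in DESeq2, 10 with RLE size factors and 33 on library totals. Among all genes, the share of higher genes of those called was 47%, against 72.8% on library totals and 36.8% with RLE size factors. The members' median stayed 0.08 above that of all genes with TMM, RLE size factors and library totals.

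Of the members called higher with lefamulin, GINS4, MCM2 and RPA3 differed most. GINS4, a GINS subunit, had 34.1, 35.4 and 33.9 CPM in the lefamulin libraries, 24.3, 22.7 and 23.9 in the retapamulin libraries, 43.7, 44.9 and 45.3 in the M5 libraries and 56.7, 51.8 and 53.7 in the untreated libraries. The lefamulin libraries lay between the retapamulin and M5 libraries, with a difference of 0.54 ± 0.051 (edgeR adjusted p = 8.83e-09). Against M5 it fell by 0.37 with lefamulin and by 0.92 with retapamulin. MCM2 had 122, 116 and 116 CPM in the lefamulin libraries, 90.1, 87.5 and 87.5 in the retapamulin libraries, 253, 238 and 248 in the M5 libraries and 267, 258 and 268 in the untreated libraries, a difference of 0.42 ± 0.036 (edgeR adjusted p = 2.54e-09). RPA3, the smallest RPA subunit, had 25.6, 28.0 and 26.4 CPM in the lefamulin libraries, 20.3, 22.3 and 21.0 in the retapamulin libraries, 38.8, 36.9 and 37.7 in the M5 libraries and 48.2, 50.3 and 47.9 in the untreated libraries, a difference of 0.33 ± 0.055 (edgeR adjusted p = 3.84e-05). In all 3 the groups did not overlap.

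CCNE1 was the member that went most clearly the other way, with a difference of -0.57 ± 0.13 (edgeR adjusted p = 0.00147), every lefamulin library lying below every retapamulin one. RFC4 differed by -0.17 ± 0.050 and CDT1 by -0.16 ± 0.061 (edgeR adjusted p = 0.0105 and 0.04), and the CDT1 libraries overlapped. CDT1 had 36.6, 31.6 and 33.0 CPM in the lefamulin libraries, 34.7, 38.4 and 39.9 in the retapamulin libraries, 78.1, 77.1 and 71.4 in the M5 libraries and 87.4, 95.6 and 88.5 in the untreated libraries. The RFC4 call was lost on library totals, on FPKM and without lefamulin replicate 3 or retapamulin replicate 3 (adjusted p 0.0527 to 0.0808 without them, 0.00114 to 0.197 over the alternatives). The CDT1 call was lost with a filter at 5 CPM, on library totals, on FPKM and without lefamulin replicate 2 or 3 or retapamulin replicate 2 or 3 (adjusted p 0.114 to 0.193 without them, 0.00717 to 0.428 over the alternatives). Without lefamulin replicate 3 or retapamulin replicate 3 the number of lower calls was 1, and without retapamulin replicate 3 the number of higher calls was 11.

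Of the 20 calls, those of GINS4, MCM2, RPA3, MCM3, POLD1, LIG1, POLA2, CDC6 and POLD3 (higher) and CCNE1 (lower) held in all 21 alternatives. The other 8 higher calls (MCM6, GINS2, PRIM1, POLD2, RFC3, RFC5, RRM2 and TYMS) each ended in at least 1. Without retapamulin replicate 3 this befell 7 of them, all but POLD2, and without retapamulin replicate 2 it befell MCM6, PRIM1, RFC5, RRM2 and TYMS. Retapamulin replicate 1 decided GINS2, POLD2 and RRM2, lefamulin replicate 1 RRM2, and lefamulin replicate 2 MCM6, PRIM1, RRM2 and TYMS. Lefamulin replicate 3 decided POLD2, PRIM1, RFC3, RFC5 and RRM2, and M5 replicates 1 and 2 decided TYMS. Their edgeR adjusted p without such a library lay between 0.0540 and 0.296. For the 29 members not called, the 95% intervals lay between -0.21 and 0.28 once E2F2 and CCNE2 were set aside. E2F2, at 0.35 ± 0.26, had the widest interval, -0.19 to 0.90, and CCNE2, at 0.08 ± 0.11, had one of -0.14 to 0.29, and its value rested on single retapamulin libraries. Without retapamulin replicate 1 its sign turned (-0.019), and without retapamulin replicate 2 it was called higher with lefamulin, at 0.26 (edgeR adjusted p = 0.0303, against 0.597 with all libraries and 0.0303 to 0.998 over the alternatives).

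**Figure D5:**
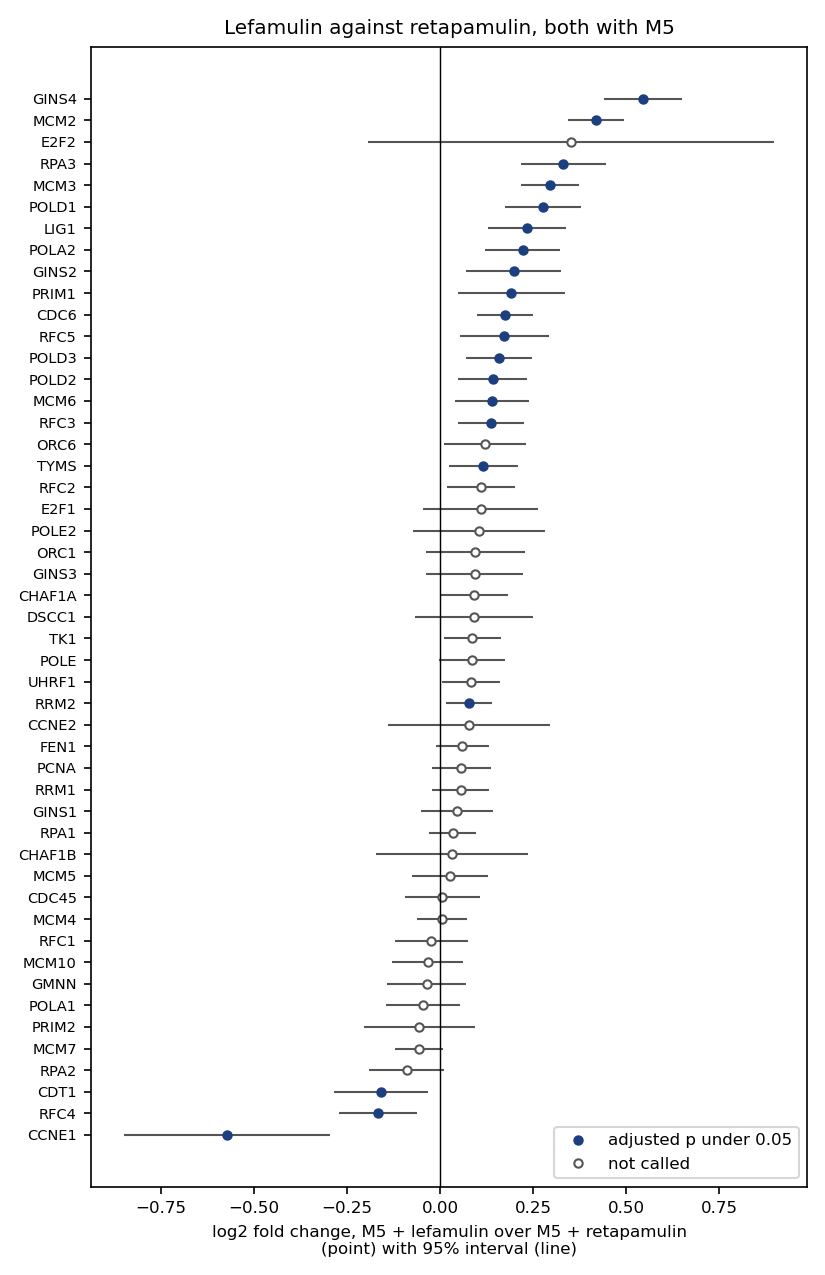
Log2 fold change of lefamulin over retapamulin, both with M5, for the 49 members in order of size, as points (filled where called) with 95% intervals as lines. GINS4 at 0.54 and MCM2 at 0.42 stand at one end, CCNE1 at -0.57 at the other, and E2F2 has the widest interval.

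Set against untreated cells, 49 of 49 members were lower with lefamulin plus M5 (37.1% of all genes tested) and 49 of 49 with retapamulin plus M5 (40.9%). The medians were -1.11 and -1.20. With lefamulin 28 members were at or below a log2 fold change of -1, against 9.54% of all genes, and with retapamulin 32 were, against 14.4%. Members that M5 had raised, such as CCNE1 and RRM2, were also below their untreated level in both compound groups. On library totals the share of higher genes among all called moved to 38.6% with lefamulin and 33.7% with retapamulin, in place of 49.9% and 47.8%, and the members' count stayed at 49 in both.

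Genes of the same processes outside the 49 members also fell for the most part, with smaller medians. Of 75 such genes in 4 lists, 74 were in the table and all of these were tested. With lefamulin against M5, 59 fell, 5 rose and 10 were not called (median -0.42), and with retapamulin 64 fell, 8 rose and 2 were not called (median -0.55). M5 against untreated gave 31 lower, 11 higher and 32 not called. Of all genes tested, 34.3% fell and 33.6% rose with lefamulin, and 38% fell and 34.1% rose with retapamulin, both against M5. With M5 against untreated, 26.9% of all genes tested fell and 28.3% rose. These shares are the background for each list below. Of 31 further replication factors, 25 fell with lefamulin and 27 with retapamulin, 3 rising with each (medians -0.42 and -0.56). Among them CDC7, the kinase that fires licensed origins, fell by 1.19 with lefamulin and by 1.76 with retapamulin, the checkpoint mediator CLSPN by 1.20 with lefamulin and the nuclease-helicase DNA2 by 1.26 with retapamulin. With M5 alone 13 of these fell and 4 rose, with falls of 0.42 each in RNASEH2A and TIMELESS and a rise of 0.38 in MCMBP.

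The exception with the largest value was POLD4, the smallest subunit of polymerase delta. It had 31.4, 28.5 and 32.3 CPM in the lefamulin libraries, 38.6, 40.1 and 41.5 in the retapamulin libraries, 14.1, 14.0 and 13.9 in the M5 libraries and 14.4, 16.5 and 15.1 in the untreated libraries. Every compound library was above every M5 and untreated one. It rose by 1.14 ± 0.065 on the log2 scale with lefamulin and 1.52 ± 0.064 with retapamulin against M5 (edgeR adjusted p = 8.82e-14 and 1.63e-16), and no alternative ended either call. Its partner subunits POLD1, POLD2 and POLD3 all fell. TOP2B and ORC4 were also called higher with both. The retapamulin call of ORC4 (0.12 ± 0.048) was lost without M5 replicate 1 or 3 or retapamulin replicate 1 or 2 (edgeR adjusted p 0.0512 to 0.158 without them, 0.00654 to 0.799 over the alternatives), and its sign turned on library totals and on FPKM.

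Of 18 further genes of nucleotide supply, 15 fell with lefamulin and 17 with retapamulin (medians -0.52 and -0.53). DUT, which removes dUTP, fell by 1.31 and 1.50 on the log2 scale. RRM2B, the alternative small subunit of ribonucleotide reductase, was the one that rose. It had 38.9, 37.9 and 37.8 CPM in the lefamulin libraries, 36.8, 35.3 and 31.5 in the retapamulin libraries, 27.3, 25.7 and 25.5 in the M5 libraries and 27.8, 26.1 and 27.6 in the untreated libraries. Its log2 fold change was 0.55 ± 0.057 and 0.40 ± 0.057 with lefamulin and retapamulin (edgeR adjusted p = 6.63e-09 and 1.04e-06), against falls of 0.97 and 1.05 in its paralog RRM2. With M5 alone 6 of the list fell, among them SHMT1 by 0.66, beside 26.9% of all genes tested. Another 2 rose, SAMHD1 by 0.27 and CTPS1 by 0.18. The CTPS1 call was lost on library totals (edgeR adjusted p = 0.12). It was also lost on log2(FPKM + 0.1) and log2(FPKM + 1) (limma adjusted p = 0.082 and 0.0755).

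All 8 further genes of replication-coupled chromatin fell with each compound (medians -0.64 and -0.77), among them the remodeller HELLS by 1.31 and 1.64. Of 17 genes of E2F, RB and cyclin control, 11 fell with lefamulin and 12 with retapamulin (medians -0.33 and -0.30). SKP2, part of the ligase that degrades the CDK inhibitor CDKN1B, fell by 1.33 and 1.58, and the phosphatase CDC25A by 1.11 and 1.08. CDC25A, like CCNE1, rose with M5, by 0.51, and E2F3 by 0.42, while E2F8 fell by 0.54. RB1 was called higher with lefamulin (0.11 ± 0.049), and RB1, E2F3, E2F6 and FBXW7 were with retapamulin (0.23, 0.24, 0.15 and 0.27). The lefamulin call of RB1 was lost when any 1 of 8 libraries was left out, namely M5 replicates 1 and 2, the 3 lefamulin replicates, retapamulin replicates 2 and 3 and untreated replicate 1 (edgeR adjusted p 0.0541 to 0.193 without them, 0.00645 to 0.275 over the alternatives). The retapamulin call of E2F6 was lost without M5 replicate 2 or retapamulin replicate 1 or 2 (edgeR adjusted p 0.0521 to 0.164 without them, 0.0112 to 0.879 over the alternatives), and that of FBXW7 without M5 replicate 1 or retapamulin replicate 1 (0.0605 to 0.0843 and 0.00138 to 0.243). On FPKM the calls of TOP2B, ORC4, RB1, E2F3, E2F6 and FBXW7 as higher with a compound all ended. Library totals likewise ended the retapamulin calls of TOP2B, RB1, E2F6 and FBXW7 (edgeR adjusted p = 0.088, 0.081, 0.87 and 0.19). The lefamulin call of RB1 ended on library totals and with RLE size factors (edgeR adjusted p = 0.21 and 0.0514).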

How the data were processed

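RNA of HaCaT cells was sequenced, and HISAT2 and HTSeq are named in the submitters' processing notes. Tool versions, genome build, annotation and strand setting were not given in the sources used here. Extraction text in the labels speaks of mouse epidermis, at odds with the cell line named for each sample, and was set aside. The authors deposited 1 table of raw read counts per gene symbol (22545 genes, 12 libraries) and 1 table of FPKM. For 20422 genes the deposited FPKM equalled count over a fixed length and the library total, within a coefficient of variation of 0.001.

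Counts were fitted with edgeR 4.0.16 in R 4.3.3 (filterByExpr, TMM, quasi-likelihood F test, 1 mean per group over all 12 libraries), which left 14207 genes tested and 8338 not tested. P-values were adjusted by Benjamini-Hochberg over all genes tested and called under 0.05, and standard errors and 95% intervals came from the fit, widened where edgeR's p is held up by the Poisson bound. Depth was 35110519 to 37520999 counts a library, and the common biological coefficient of variation was 0.0449. No pair of libraries of the same group agreed within sampling noise, and pairs across groups were not compared in this way. The fitting code was tested on simulated counts. Alternatives were DESeq2 1.42.0, RLE size factors, library totals, no low-count filter, a filter at a mean of 5 CPM, fits restricted to the 2 groups compared, a replicate block, limma 3.58.1 on log2(FPKM + 0.1) and log2(FPKM + 1), and leaving out each library, 21 in all. FPKM were used for levels between genes. The size of such ratios and shares depends on the fixed length behind each gene's FPKM, which was not checked against the transcripts present.

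The members, role groups and lists of other genes were chosen with earlier results of these data known, and none of them is independent support for a pattern. Named in full are, per role group, the member with the largest change in each comparison, members called against their group, and CCNE1, CCNE2, E2F1 and PCNA. For lefamulin against retapamulin they are the 3 called members with the largest difference each way. For each of the other lists the plan was up to 2 genes each way in a comparison. Every called rise of those lists with a compound is named, which goes past that plan. RB1 and E2F6 with retapamulin were added after their values were seen. Genes overlapping another gene that has at least 10% of their CPM are given as uncertain, and RefSeq (GRCh38.p14) supplied overlaps and promoters. Deviations of same-numbered replicates were not consistently correlated (-0.20 to 0.30, 3 of 18 above 0.1), and no block was fitted in the main analysis. The highest values, 0.30 and 0.22, were for pairs of M5 and untreated libraries. With 3 libraries a group such correlations cannot exclude pairing. Figures were drawn with matplotlib 3.10.9.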

Additional observations from a re-analysis of the deposited data

How the results depend on the processing

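Every one of the 6 comparisons kept the direction of the members' median log2 fold change in all 21 alternatives. With M5 against untreated cells, the number of members called higher was 2 with a filter at 5 CPM, on library totals and on both FPKM scales, and the median was -0.22 with that filter, -0.31 on library totals, -0.31 on log2(FPKM + 0.1), -0.30 on log2(FPKM + 1) and -0.17 with no filter. With lefamulin against M5 the median was -0.90 (5 CPM), -0.97 (totals), -0.97 and -0.94 (FPKM + 0.1 and + 1) and -0.94 (no filter). With retapamulin against M5 it was -0.97 in DESeq2 and with RLE size factors, -1.14 on totals and -1.13 and -1.05 on FPKM. With lefamulin against retapamulin, members called higher numbered 9 in DESeq2, 10 with RLE, 33 on totals and 34 on each FPKM scale, those called lower 5 with RLE and 1 on totals and on each FPKM scale, and the median was 0.057 in DESeq2 and with RLE, 0.18 on totals and 0.18 and 0.16 on FPKM. Against untreated cells, the lefamulin median was -1.27 on totals and -1.27 and -1.21 on FPKM, and the retapamulin median -1.16 in DESeq2 and with RLE, -1.22 at 5 CPM, -1.18 in a fit of the 2 groups, -1.46 on totals, -1.45 and -1.35 on FPKM and -1.19 with no filter. Totals moved the median of all genes to -0.14 (M5 against untreated), -0.05 and -0.19 (lefamulin and retapamulin against M5) and 0.10 (lefamulin against retapamulin), and for retapamulin against M5 higher genes made up 37.4% of all calls in place of 47.3%. The FPKM scales are likewise relative to library totals.

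Leaving out each library in turn gave 2 to 4 higher and 32 to 35 lower members with M5 (median -0.20 to -0.19), 48 to 49 lower with lefamulin (-0.95 to -0.92) and 48 to 49 with retapamulin (-1.02 to -0.99) against M5, 11 to 19 higher and 1 to 3 lower between the compounds (0.066 to 0.11), and 49 lower against untreated cells with lefamulin (-1.13 to -1.09) and retapamulin (-1.22 to -1.20). Signs turned for POLD3 with M5 (-0.026 on totals, -0.026 and -0.025 on FPKM), CCNE2 with M5 (-0.084, -0.083 and -0.076), ORC4 with retapamulin (-0.017, -0.017 and -0.015) and CCNE2 between the compounds without retapamulin replicate 1 (-0.019, with 0.26, then called, without retapamulin replicate 2), and the cause was not tested. With a replicate block, 3 members were called higher and 35 lower with M5, 49 lower with each compound against M5, and 17 higher and 3 lower between the compounds. It ended the calls of POLD3 (M5) and TYMS (between the compounds). With 17 still called higher between the compounds without TYMS, the block also added a call that the main fit did not make. The labels do not say that the numbers pair the samples, and whether they do is not known.

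Precision is limited for E2F2 by counts down to 23, and for all members by 3 libraries a group. Doses and times are not stated, which limits what the comparisons between groups can be taken to mean.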
